A study of Mus musculus with 4 samples.

Results

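Glycolysis turns glucose into pyruvate, and glycogen is the store from which muscle fibers draw glucose during contraction. The data described here are the levels of 35 genes for glucose transport, glycolysis, lactate handling, glycogen synthesis and glycogen breakdown, out of 24850 named entries in the total RNA-seq tables and 24992 in the PolyA+ RNA-seq tables. The genes were taken by name from knowledge of the pathway, with earlier results of these data known. All 35 were found in every table. All libraries came from C2C12, a line of mouse myoblasts that forms myotubes after growth medium is replaced with differentiation medium (DM). Total RNA-seq of RNA depleted of rRNA covered proliferating myoblasts (MB), collected 24 h before DM, and myotubes (MT) at DM 72 h. PolyA+ RNA-seq covered MT at DM 48 h transfected with a control siRNA (si-NC) or with an siRNA against hnRNPL (si-hnRNPL), an RNA-binding protein. The cell line, the medium and the time were the same for si-NC and si-hnRNPL. Each of the 4 conditions had 1 library, so no difference below has a replicate check, no p-value is given, and the spread between cultures is unknown.

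Many steps of the pathway are carried by families of isozymes, in which a gene that adult muscle favors stands beside genes used more widely. Phosphofructokinase, the main control point of glycolysis, is encoded by Pfkm (muscle), Pfkl (liver) and Pfkp (platelet), and glycogen phosphorylase, which releases glucose units from glycogen, by Pygm (muscle), Pygb (brain) and Pygl (liver). Proliferating cells commonly run glycolysis at a high rate even with oxygen present, and hypoxia-inducible factor (HIF) is a known activator of many glycolysis genes. MyoD and myogenin, the factors that drive myoblast differentiation, bind the E-box.

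The promoters of 4 genes chosen among those that rose or fell in MT are shown first. They place the letters of known regulators of the pathway beside the values that follow. Sequences are the 250 bases upstream of the start sites that RefSeq gives in GRCm38.p6, read 5′ to 3′ on the strand of the gene. Pygm and Pgam2 had the largest rises among the 35 genes in MT, and capitals mark every E-box (CANNTG).
Pygm (chr19:6384158-6384407, plus strand): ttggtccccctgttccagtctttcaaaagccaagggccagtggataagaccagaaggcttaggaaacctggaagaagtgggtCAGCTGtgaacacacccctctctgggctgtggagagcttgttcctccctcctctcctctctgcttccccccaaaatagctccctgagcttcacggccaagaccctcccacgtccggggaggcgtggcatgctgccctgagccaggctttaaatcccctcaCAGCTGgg
Pgam2 (chr11:5803797-5804046, minus strand): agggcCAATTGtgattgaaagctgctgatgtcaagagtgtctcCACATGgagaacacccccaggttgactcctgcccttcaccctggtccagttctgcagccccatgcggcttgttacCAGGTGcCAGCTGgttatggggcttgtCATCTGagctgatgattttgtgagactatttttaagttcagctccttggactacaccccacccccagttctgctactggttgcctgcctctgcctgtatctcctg
Ldha, which encodes the lactate dehydrogenase subunit common in muscle and dividing cells, and Pgk1, which encodes an ATP-forming kinase of lower glycolysis, both fell in MT. Capitals there mark ACGTG or its reverse complement, the core letters of a HIF site. RefSeq gives Ldha 2 start sites, of which the first is shown, with 5 matches, while the window of the second holds 0. Pgm1, Slc2a1, Eno1 and Pgam1 fell further than Ldha and Pgk1, and no ACGTG stands in the windows of Eno1. Each sequence is marked for 1 kind of letters only. The Pygm window also holds ACGTG, and the windows shown for Ldha and Pgk1 hold 2 E-boxes each.
Ldha (chr7:46845554-46845803, plus strand): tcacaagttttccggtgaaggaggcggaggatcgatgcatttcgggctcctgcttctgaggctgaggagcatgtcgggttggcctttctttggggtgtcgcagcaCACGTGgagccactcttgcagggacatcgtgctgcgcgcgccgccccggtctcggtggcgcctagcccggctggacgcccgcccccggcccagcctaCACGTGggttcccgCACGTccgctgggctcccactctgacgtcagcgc
Pgk1 (chrX:106186850-106187099, plus strand): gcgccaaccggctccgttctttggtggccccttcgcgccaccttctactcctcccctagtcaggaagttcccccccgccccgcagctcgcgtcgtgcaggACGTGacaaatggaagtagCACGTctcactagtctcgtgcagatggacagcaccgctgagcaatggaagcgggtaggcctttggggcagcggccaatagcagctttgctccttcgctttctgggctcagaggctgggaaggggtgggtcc
Letters were counted on both strands in the 250 bases before each start site, for 34 of the 35 genes with 46 start sites and for 32851 start sites of all genes. An E-box stood in 63.0% of the windows of these genes and in 66.2% of all windows. ACGTG stood in 39.1% of their windows against 16.6% of all, and in at least 1 window of 16 of the 34 genes. GCGTG, the other form of the HIF core, stood in 52.2% against 28.2%. CACGTG, which holds ACGTG on both strands and is also an E-box, stood in 6.52% against 6.02%. Of the 6 genes that rose in MT, 4 had an E-box (Eno2, Pfkm, Pgam2 and Pygm) and 2 had ACGTG (Pfkm and Pygm). Of the 10 that fell, 5 had an E-box and 8 had ACGTG, the exceptions being Gapdh and Eno1. The other core form, GCGTG, stood in 4 of the 6 and 6 of the 10. Of the 18 genes that neither rose nor fell, 13 had an E-box, 6 had ACGTG and 10 had GCGTG. A gene can have several windows, so these counts of genes cannot be set against the shares of windows. No count of genes was made over all genes, and windows were not matched for base composition. The rises and falls here are those of the FPKM as deposited, and rescaling the libraries changes them, as given below. A link between the letters and the changes was not tested. These are matches of letters and show no binding.

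Levels are given as FPKM, fragments scaled by transcript length and library size, as deposited, with the 95% interval that Cufflinks wrote, which covers counting and assignment error within a library. The intervals correspond to about 14592500 (si-hnRNPL) and 58867300 (MB) fragments over the named entries of a library, so the total RNA-seq values are the more precise. A change is log2((FPKM + 1) ratio), and a gene is said to rise or fall at 0.58 or more in size, just under the 1.5-fold threshold of the study, which is 0.585 on this scale. Myod1, the muscle master factor, was present in all 4 libraries at 36.6 to 65.9 FPKM. In MT, 10 of 11 muscle markers were higher than in MB, among them Myog (0.695 and 251 FPKM in MB and MT) and the creatine kinase gene Ckm (0.00961 and 66.3 FPKM). Of 12 markers of fat, bone, endothelial, blood and epithelial cells, 4 reached 1 FPKM in MB or MT. Among those, Cd36 and Bglap were higher in MT and Pparg and Runx2 lower, and their part in the results was not tested. Pparg had 14.8 FPKM in MB, 3.94 in MT, 3.37 in si-NC and 4.39 in si-hnRNPL. Runx2 had 10.3, 6.11, 14.8 and 13.6 FPKM in the same order. Of the remaining markers, Fabp4, Sp7 and Alpl were highest in MB, at 0.251, 0.131 and 0.0510 FPKM. Adipoq, Cdh5, Pecam1, Ptprc and Epcam stayed below 0.05 FPKM in every library.

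**Figure D1:**
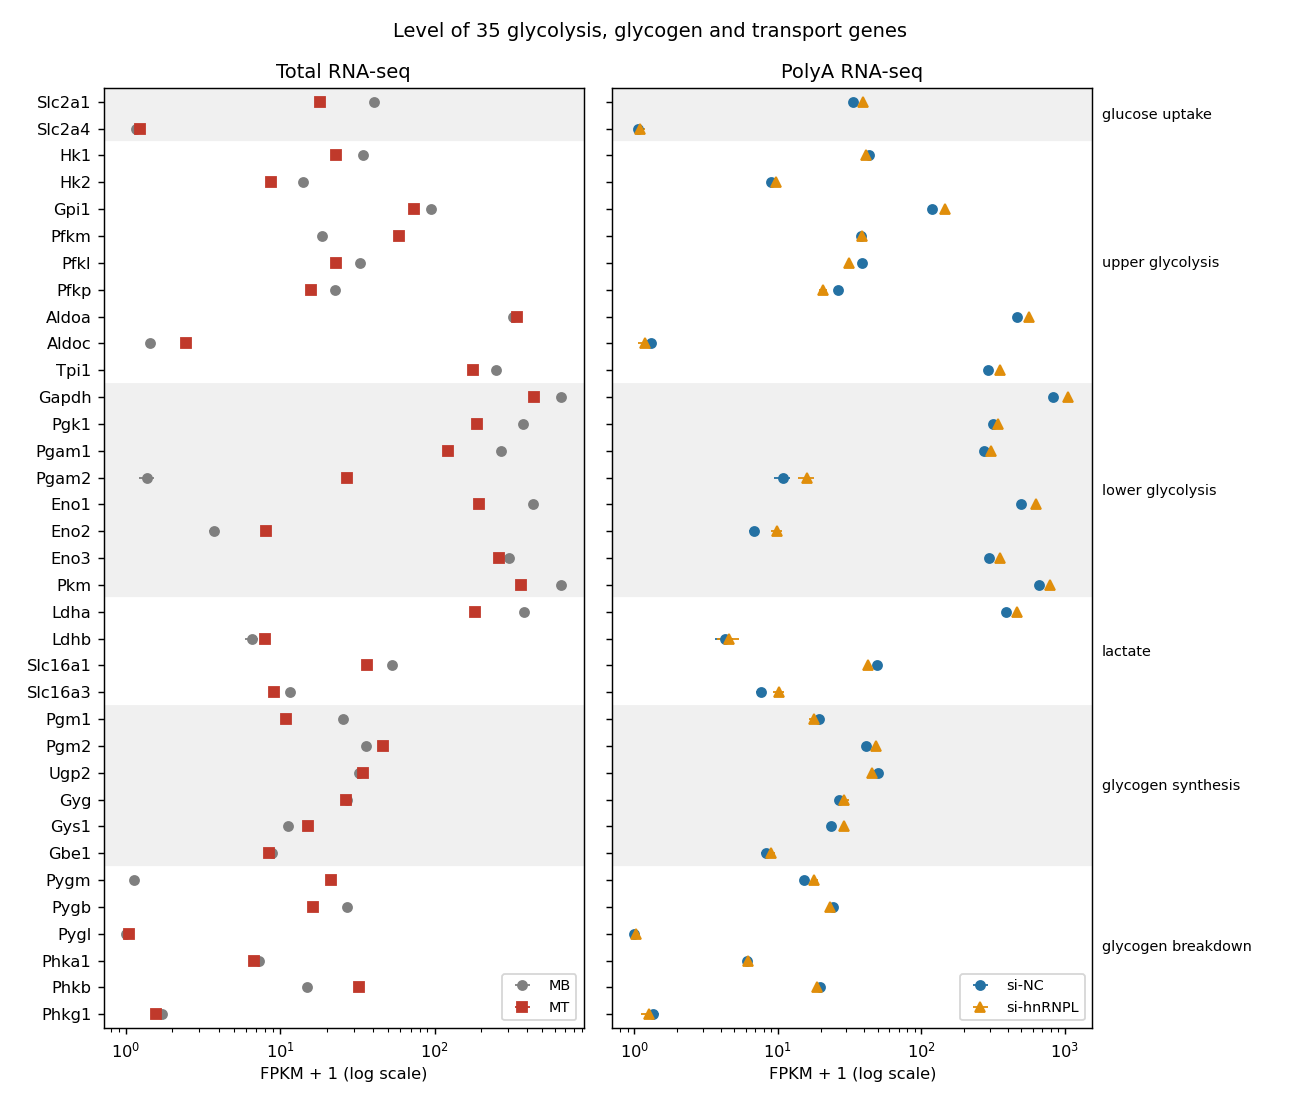
FPKM + 1 of the 35 genes on a log axis, with total RNA-seq (MB circles, MT squares) on the left and PolyA+ RNA-seq (si-NC circles, si-hnRNPL triangles) on the right. Bars are the 95% intervals within a library and shaded bands separate the roles. Pgam2 and Pygm lie near the left edge in MB and at 26.0 and 20.2 FPKM in MT, while Slc2a4, Pygl and Phkg1 lie near the left edge in every library.

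The first comparison asked how the pathway differs between MB and MT. At the threshold, 6 of the 35 genes were higher in MT (Pfkm, Aldoc, Pgam2, Eno2, Pygm and Phkb) and 10 were lower (Slc2a1, Hk2, Gapdh, Pgk1, Pgam1, Eno1, Pkm, Ldha, Pgm1 and Pygb). Among the 11816 named entries with 1 FPKM or more in MB or MT, 15.4% were higher and 28.6% lower, and the 32 of these genes that reached that level include all 16 called. At exactly 1.5-fold, chosen after seeing the data, 6 genes were higher and 9 lower, without Gapdh, beside 15.3% and 28.3% of the entries. In bulk RNA, fewer cells with a transcript and less of it per cell cannot be told apart. The median change was -0.22 over the 35 genes, -0.36 over those 32 and -0.20 over the 11816 entries. Named entries with 1 FPKM or more in both libraries had a median of -0.23, so a change is best read against that value. After centring on it, 8 of the 35 genes were higher and 7 lower, beside 22.8% and 18.7% of the entries. Gys1 (0.65) and Pgm2 (0.59) joined the higher genes, and Hk2 (-0.46), Gapdh (-0.36) and Pygb (-0.50) left the lower ones. Scaling the libraries to equal sums of all named entries moved the log2 ratios of FPKM up by 1.07, with the microRNA genes Mir3113 and Mir5098 making up 38.1% of the sum in MB and listed at 0 in MT. None of the 35 genes was then lower, and the change of Hk2, Gapdh, Pgk1, Pkm, Ldha and Pygb turned positive. Equal sums over protein-coding genes moved them up by 0.39 and left 6 lower (Slc2a1, Pgk1, Pgam1, Eno1, Ldha and Pgm1). The falls are therefore stated relative to the scale of the deposited FPKM, whereas the differences between isozymes of a family in the same library do not depend on it.

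**Figure D2:**
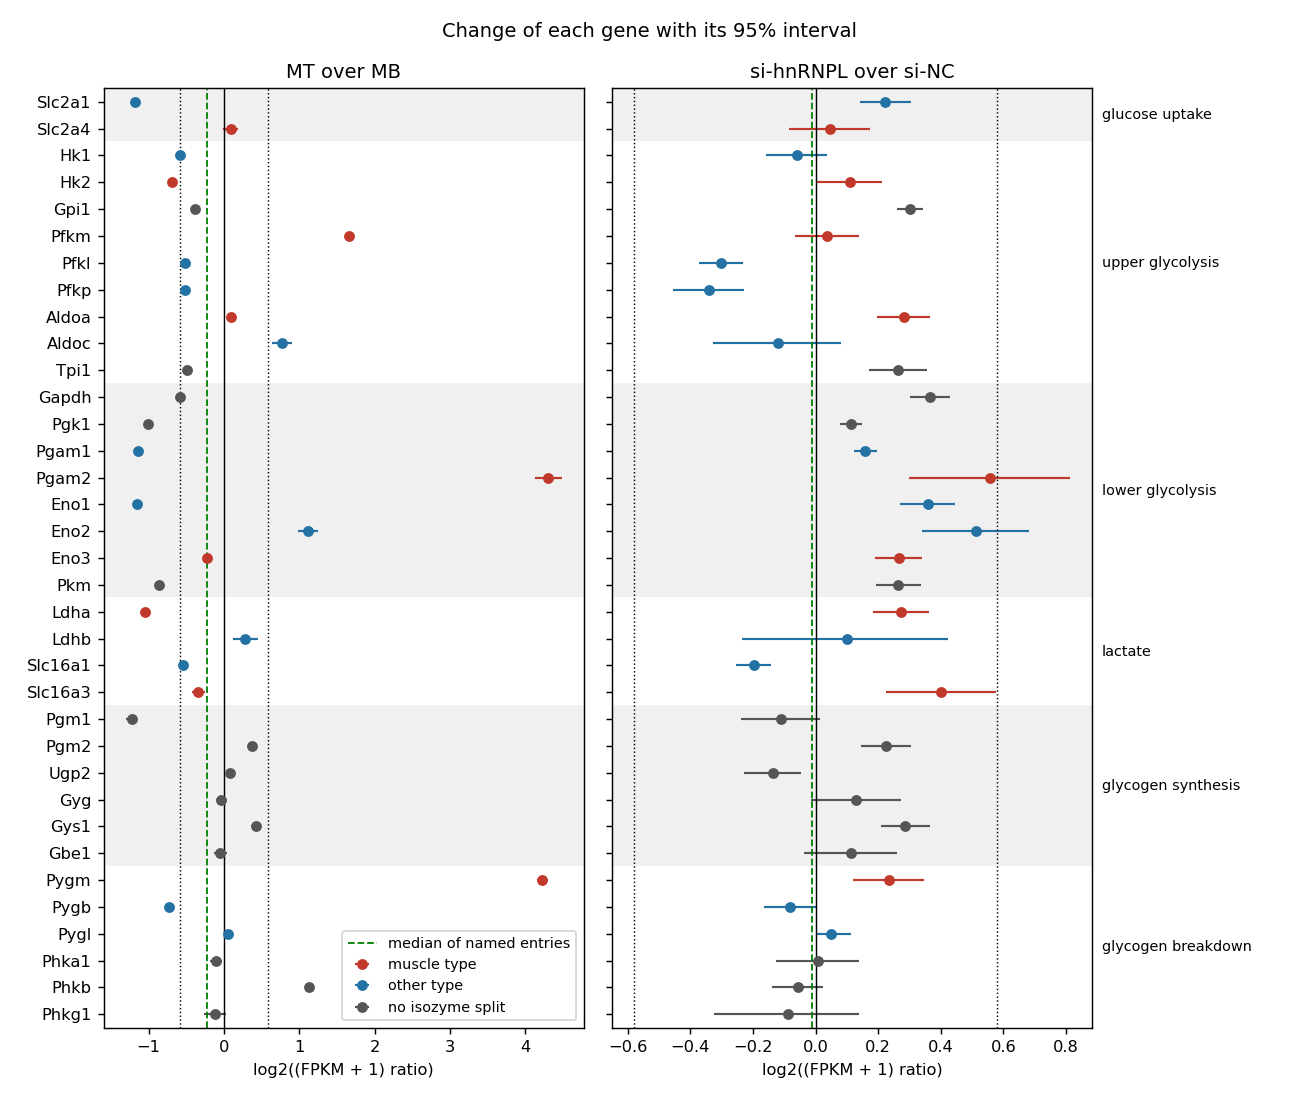
Change of each of the 35 genes as log2((FPKM + 1) ratio), MT over MB on the left and si-hnRNPL over si-NC on the right, with 95% intervals from the error within each library. Red marks muscle-type isozymes, blue other isozymes and gray genes without such a split. The dashed line is the median of named entries and dotted lines mark 0.58 in either direction. Pgam2 and Pygm stand apart on the left, at 4.30 and 4.23, and no gene passes the dotted lines on the right.

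Glucose enters these cells through carriers of the Slc2a family. Slc2a1, the carrier found in most cell types, had 39.7 FPKM (95% interval 38.9 to 40.6) in MB and 16.99 (16.4 to 17.6) in MT, a fall by 1.18 on the log2 scale. Slc2a4, the insulin-responsive carrier of adult muscle and fat, had 0.168 FPKM (0.113 to 0.223) in MB and 0.242 (0.178 to 0.307) in MT. It was thus near the limit of detection in both, and its intervals overlapped. PolyA+ RNA-seq gave the same order, with Slc2a1 at 32.5 FPKM (si-NC) and 38.2 FPKM (si-hnRNPL), and Slc2a4 at 0.0652 and 0.101 FPKM.

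In upper glycolysis, from hexokinase to triose phosphate isomerase, Pfkm was the gene that stood out. Pfkm (chr15:97923020-97962878 in mm9, plus strand) rose from 17.6 FPKM (16.97 to 18.3) in MB to 58.0 (56.7 to 59.4) in MT, a change of 1.67. Pfkl had 32.0 FPKM in MB and 22.2 in MT, and Pfkp had 21.6 and 14.9, so both were lower by 0.51 and short of the threshold. The order of the 3 genes changed, with Pfkl the highest and Pfkm the lowest in MB, and Pfkm the highest in MT. Hexokinase traps glucose in the cell by phosphorylating it. Hk2, the hexokinase prominent in muscle, fell by 0.69, from 13.03 FPKM (12.7 to 13.4) to 7.70 (7.44 to 7.95). Hk1, the widely used hexokinase, had 33.4 FPKM in MB and 22.1 in MT, and its change of -0.578 was the closest to the threshold from below. Aldoa, the aldolase of muscle, had 319 FPKM (316 to 323) in MB and 341 (337 to 345) in MT, a change of 0.10. Aldoc, the aldolase of brain, rose from 0.441 FPKM to 1.45 and stayed a minor form. Gpi1, which interconverts hexose phosphates, and Tpi1, which interconverts triose phosphates, changed by -0.38 and -0.49. Of the 9 genes of upper glycolysis, 2 rose and 1 fell.

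Lower glycolysis, from glyceraldehyde phosphate to pyruvate, held both the largest rise and 5 of the 10 falls. Pgam2, the muscle phosphoglycerate mutase (chr11:5701643-5703736 in mm9, minus strand), rose from 0.372 FPKM (0.217 to 0.527) in MB to 26.0 (24.8 to 27.3) in MT, a change of 4.30. Pgam1, the widely used mutase, fell by 1.14, from 270 FPKM (267 to 273) to 122 (120 to 124). Eno1, the widely used enolase, fell by 1.16, from 436 FPKM (432 to 440) to 195 (192 to 197). Eno3, the muscle enolase, was already abundant in MB, with 303 FPKM (299 to 307) there and 260 (256 to 263) in MT, and its change of -0.22 was the median of the 35 genes. Eno2, known from neurons, rose by 1.11, from 2.74 FPKM to 7.08. Pgk1 fell by 1.01, from 376 FPKM (373 to 379) to 186 (184 to 188). Pkm, which encodes the muscle-type pyruvate kinases, fell by 0.87, from 662 FPKM (658 to 667) to 363 (360 to 367). The gene-level tables do not separate the spliced forms of Pkm. Gapdh, which oxidizes glyceraldehyde phosphate, had 659 FPKM (654 to 664) in MB and 439 (435 to 444) in MT, and its change of -0.584 lay just past 0.58 and just short of 1.5-fold. Pkm and Gapdh were the most abundant of the 35 genes in MB, at ranks 34 and 35 of all named entries, and their intervals overlapped there. In MT, Gapdh came first (rank 37), before Pkm (65), Aldoa (78) and Eno3 (126), each apart from the next by its interval.

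Several of these abundant genes have near-identical copies, and abundant genes as a group were lower in MT on the deposited scale. Gapdh matched 53 other places in mm9 over at least 75% of its coding sequence at 95% identity or more, Pgam1 and Ldha 3 each, Pgk1 and Eno1 2 each, and Gpi1, Tpi1, Pkm and Ldhb 1 each. The division of fragments between such copies is uncertain, whereas the other 26 genes had no copy by this measure. The copies Eno1b and Gm12070 (a copy of Gapdh, chosen after its values were seen) had 171 and 85.5 FPKM in MB and 77.7 and 58.0 in MT. Adding them to their parent genes gave changes of -1.15 for Eno1 and -0.58 for Gapdh, which changed no call. Of the 618 named entries with a mean of 100 FPKM or more, 294 were lower and 34 higher in MT, with a median of -0.57. The 9 genes of the pathway at that level had a median of -0.87, and 6 of them were lower. At 200 FPKM or more, the medians were -0.57 over 232 entries and -0.72 over 8 genes. Nuclear RNAs moved the opposite way, with Malat1 higher in MT by 1.96, Neat1 by 1.70 and Xist by 1.40, and their part in the falls was not tested.

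**Figure D3:**
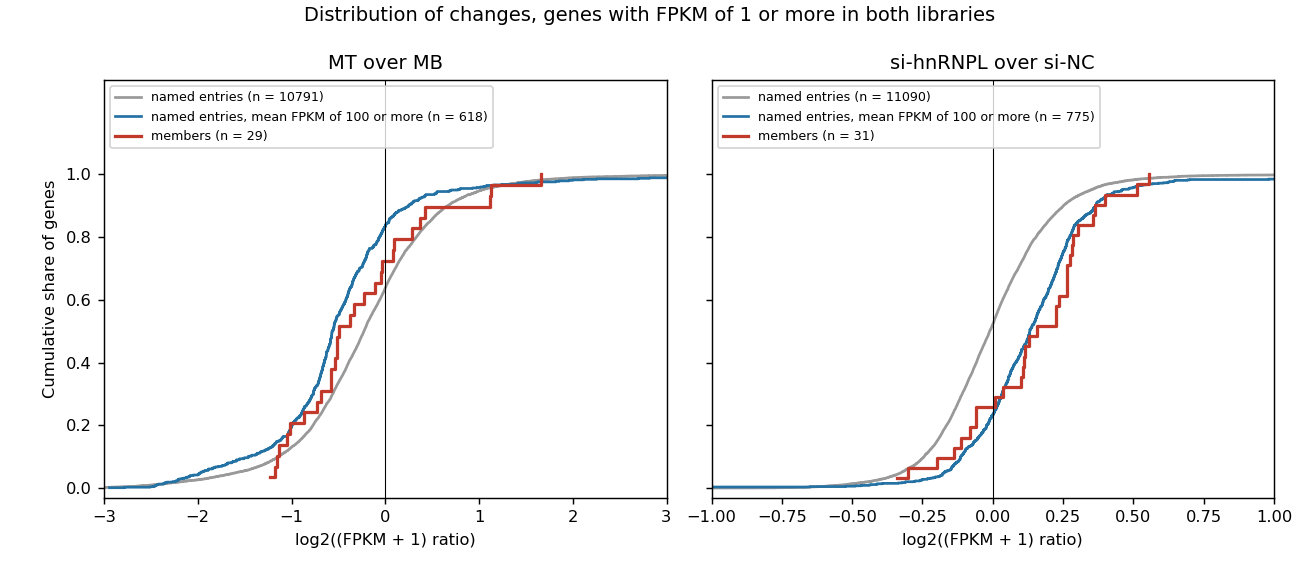
Cumulative share of genes by log2((FPKM + 1) ratio), for MT over MB (left) and si-hnRNPL over si-NC (right), among genes with 1 FPKM or more in both libraries. Gray is all named entries, blue those with a mean of 100 FPKM or more, and red the genes of the pathway (29 on the left, 31 on the right). The red curve runs mostly between gray and blue on the left, and close to blue on the right, where abundant entries as a group had a median of 0.13. Axes end at 3 and 1, beyond which some gray and blue entries lie.

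Lactate is made from pyruvate by lactate dehydrogenase and leaves the cell through monocarboxylate carriers. Ldha fell by 1.04, from 378 FPKM (374 to 382) in MB to 183 (180 to 185) in MT. Ldhb, the subunit of heart, had 5.54 FPKM (4.93 to 6.16) and 6.95 (6.41 to 7.50), a change of 0.28. Slc16a1, the widely used carrier, and Slc16a3, the carrier of fast glycolytic muscle, changed by -0.54 and -0.34. Of the 4 lactate genes, Ldha alone passed the threshold.

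Among the glycogen genes, breakdown held the rises. Pygm (chr19:6384399-6398459 in mm9, plus strand) rose from 0.135 FPKM (0.0856 to 0.184) in MB, where its interval corresponds to 30 fragments, to 20.2 (19.7 to 20.8) in MT, a change of 4.23. Pygb fell by 0.73, from 26.2 FPKM (25.6 to 26.8) to 15.4 (15.0 to 15.8), and Pygl was at or below 0.0433 FPKM in all 4 libraries. Phosphorylase kinase switches glycogen phosphorylase on. Its regulatory subunit gene Phkb rose by 1.13, from 13.9 FPKM (13.5 to 14.2) to 31.4 (30.8 to 32.0). Phka1, the muscle form of another regulatory subunit, had 6.29 and 5.78 FPKM, and Phkg1, the catalytic subunit of muscle, 0.709 and 0.576 FPKM. These 3 subunit genes thus did not move together, and Phkg1 stayed below 1 FPKM while Pygm reached 20.2. Phkg2, the other catalytic subunit gene, was higher than Phkg1, with 4.86 FPKM in MB and 4.43 in MT. Phka2, the other form of the Phka1 subunit, had 8.20 and 11.5 FPKM. Of the exon length of Phkg1, 19.6% overlaps Sumf2 on the other strand, so part of its fragments may not be its own.

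Of the 6 glycogen synthesis genes, 1 fell and none rose. The glycogen synthase gene of muscle, Gys1, had 10.3 FPKM (9.93 to 10.7) in MB and 14.2 (13.7 to 14.6) in MT, a change of 0.42 that passed the threshold only after centring or rescaling. The primer gene Gyg (26.2 and 25.6 FPKM), the branching enzyme gene Gbe1 (7.80 and 7.50) and Ugp2 (31.6 and 33.5), whose enzyme makes the activated sugar UDP-glucose, each had a change below 0.10 in size. The phosphoglucomutase genes moved apart. The gene that the tables call Pgm1, on chromosome 5, fell by 1.23, from 24.4 FPKM to 9.84. The gene they call Pgm2, on chromosome 4, had 35.1 FPKM (34.2 to 36.01) in MB and 45.6 (44.6 to 46.6) in MT, a change of 0.37. RefSeq has since exchanged the names, so the gene on chromosome 4 is now Pgm1. Over the 12 glycogen genes, 2 rose, 2 fell and the median was 0.01. Over the 23 genes from glucose uptake to lactate, 4 rose, 8 fell and the median was -0.51. Among all named entries with 1 FPKM or more in MB or MT, 15.4% were higher and 28.6% lower, with a median of -0.20. The counts in both groups lie near those shares. In lower glycolysis alone, 5 of 8 genes fell and 2 rose, a group too small to set against them.

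Set within families, the muscle-type share differed between MB and MT in each of the 9 families by more than the error within a library, up in 6 and down in 3. For phosphofructokinase, Pfkm made up 24.7% (24.0 to 25.5) of the family FPKM in MB and 61.0% (60.3 to 61.8) in MT. For glycogen phosphorylase, Pygm made up 0.512% (0.326 to 0.698) in MB and 56.7% (55.7 to 57.7) in MT. For enolase, Eno3 made up 40.9% (40.5 to 41.3) and 56.3% (55.8 to 56.7). With the first listed entry of the copy Eno1b added to the family, its share was 33.8% in MB and 48.7% in MT. The higher share in MT thus remained, whereas a majority for Eno3 depends on how the copy is counted. For phosphoglycerate mutase, Pgam2 made up 0.138% (0.0803 to 0.195) and 17.6% (16.9 to 18.3), so Pgam1 remained the main mutase in MT. These 4 families carried the large differences, of 15.4 to 56.2 percentage points, and the other 5 moved by -2.22 to 1.802 points.

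The routes to a higher share differed. The family FPKM of phosphofructokinase was 71.3 in MB and 95.1 in MT, and that of glycogen phosphorylase 26.3 and 35.7. In both, the muscle-type gene rose more than the others fell. The family FPKM of enolase was 742 in MB and 461 in MT, and that of the mutases 270 and 148. For enolase, Eno3 itself was not higher in MT on the deposited scale, and its share rose with the fall of Eno1. The remaining 3 families had a lower muscle-type share in MT, namely hexokinase (28.1% and 25.9% in MB and MT), lactate dehydrogenase (98.6% and 96.3%) and aldolase (99.9% and 99.6%). The last 2 were dominated by the muscle-type gene already in MB. The share of Slc16a3 among the monocarboxylate carriers was 16.96% and 18.8%, and that of Slc2a4 in the sum of Slc2a1 and Slc2a4 0.420% and 1.41%. With further glucose carriers added, the share of Slc2a4 was 0.389% and 1.06%, and its own FPKM intervals overlapped.

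**Figure D4:**
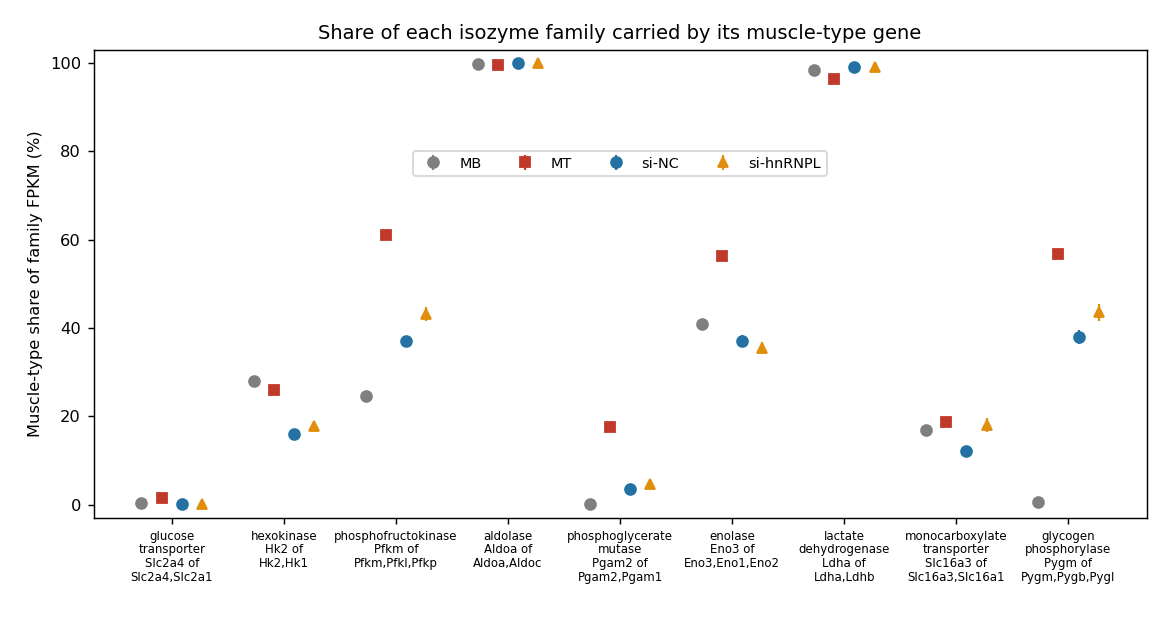
Share of the family FPKM carried by the muscle-type gene, in percent, for 9 isozyme families and 4 libraries (MB gray circles, MT red squares, si-NC blue circles, si-hnRNPL orange triangles). Bars are 95% intervals from the error within a library, most of them smaller than the symbols. MT lies highest of the 4 for phosphofructokinase (61.0%), phosphoglycerate mutase (17.6%), enolase (56.3%) and glycogen phosphorylase (56.7%). The copy Eno1b is not counted in the enolase family here.

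Other genes around the pathway were taken from a list of 59, of which 40 reached 1 FPKM in MB or MT, with 8 higher and 10 lower in MT on the deposited scale, beside 15.4% and 28.6% of all entries at that level. The rescalings above would shift these changes as well. The pentose phosphate pathway, which branches off to make NADPH and ribose, had 7 of 7 genes lower in value, beside 61.1% of all entries, and 4 past the threshold. There, G6pdx, the entry enzyme, fell by 1.71 (70.8 FPKM in MB and 21.0 in MT), Tkt by 1.77, Pgd by 0.85 and Rpia by 0.70. Of the genes that control the bisphosphate activator of phosphofructokinase, Pfkfb1, Pfkfb3, Pfkfb4 and Tigar fell, by 0.76 to 1.19. Pfkfb2 went the other way, from 4.68 FPKM in MB to 6.04 in MT, a change of 0.31 and short of the threshold. Among the kinases that inhibit pyruvate dehydrogenase, Pdk1 and Pdk2 rose (1.08 and 1.93) while Pdk3 and Pdk4 fell (by 1.10 and 0.77). Pdp1, the phosphatase that opposes them, rose by 1.35. Further glycogen genes that rose were Gaa, the lysosomal glucosidase (1.37), Epm2a, a glycogen phosphatase (0.88), and Pgm5, a relative of the phosphoglucomutases (2.41). Slc2a8, a glucose carrier, rose by 0.68, and Txnip, which restrains glucose uptake, by 2.28, from 9 FPKM to 47.7. Hif1a had 45.7 FPKM in MB and 50.9 in MT, a change of 0.15. The other listed transcriptional regulators short of the threshold were Arnt (0.52), Mlx (-0.48) and Mlxip (-0.22). These are RNA levels, and HIF protein was not measured here.

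The second comparison asked what changes when hnRNPL is targeted in MT. The target itself differed little at the RNA level, with Hnrnpl at 95.1 FPKM (92.7 to 97.5) in si-NC and 85.9 (83.1 to 88.7) in the library labelled si-hnRNPL, a change of -0.14. Across the 35 genes, none was higher and none lower at the threshold, beside 1.44% higher and 0.888% lower among the 11370 named entries with 1 FPKM or more in either library. The gene closest to the threshold was Pgam2, which had 9.83 FPKM (8.496 to 11.2) with si-NC and 14.9 (12.9 to 16.97) in si-hnRNPL, a change of 0.56. With a pseudocount of 0.1 in place of 1 it passed, at 0.60. Eno2 came next, with 5.89 FPKM and 8.82, a change of 0.51.

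Below the threshold, more of the 35 genes were above 0 than below on the deposited scale. Of the 35, 25 were above 0 and 10 below, beside 48% and 52% of the 11370 entries, and the median was 0.11 beside -0.01 over the 11090 named entries with 1 FPKM or more in both libraries. The interval of the change lay above 0 for 18 genes and below 0 for 5, beside 20.6% and 26.6% of the entries. Equal sums of named entries moved the log2 ratios by -0.117 and left 22 of the 35 above 0, with a median of 0.043, beside 28.5% of the entries. Equal sums over protein-coding genes moved them by -0.0984 and left 23 above 0, with a median of 0.061, beside 31% of the entries. In lower glycolysis all 8 genes had an interval above 0, with a median of 0.31. After either rescaling 7 of the 8 did, the exception being Pgk1. Gapdh, at 823 FPKM (797 to 849) with si-NC and 1060 (1026 to 1093) with si-hnRNPL, changed by 0.36, and Eno1, at 495 and 635 FPKM, by 0.36 as well. Pkm had 658 FPKM (635 to 681) and 790 (763 to 818), Aldoa 463 and 563, Ldha 388 and 468, and Gpi1 118 and 146, with changes from 0.26 to 0.30. All 9 muscle-type genes were above 0, 7 of them with the interval above 0. After either rescaling 8 of the 9 were above 0, without Pfkm, and 6 had the interval above 0. Outside lower glycolysis the changes of the other genes not yet named ranged up to 0.40, that of Slc16a3. The 5 genes with an interval below 0 were Pfkl (-0.30), Pfkp (-0.34), Slc16a1 (-0.20), Ugp2 (-0.14) and Pygb (-0.08).

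These small differences moved together with level, exon length and GC content in the whole library. The 775 named entries with a mean of 100 FPKM or more had a median of 0.13, and the 10 genes of the pathway at that level a median of 0.27. Of these entries 60% had an interval above 0, as had all 10 genes. At a mean of 200 FPKM or more, the medians were 0.20 over 356 entries and 0.27 over 9 genes, and 74.7% of the entries and all 9 genes had an interval above 0. Over 9836 protein-coding genes, Spearman's rho of the change was -0.41 with exon length and 0.42 with the GC content of exons. This is a description across genes measured in the same 2 libraries, and genes are not independent replicates. The 31 genes of the pathway with 1 FPKM or more in both libraries had a median exon length of 3069 bp and a median GC content of 53.2%, against 3802.5 bp and 49.9% over all. After the trend with both properties was removed, their median was 0.13 instead of 0.16, with 22 of 31 above the median of all genes. Single genes shrank more, with Pgam1 at 0.025 instead of 0.16, Pkm at 0.13 instead of 0.26 and Eno3 at 0.12 instead of 0.27. Pgam2 was at 0.32 instead of 0.56, and Pfkm turned negative, at -0.031 instead of 0.037. The genes of lower glycolysis all stayed above 0, the highest being Eno2 at 0.45. Muscle markers also moved, with Ckm higher by 0.71, Acta1 by 0.61 and Myog by 0.51 in si-hnRNPL and Myf5 lower at -0.40, and their part in the result was not tested.

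**Figure D5:**
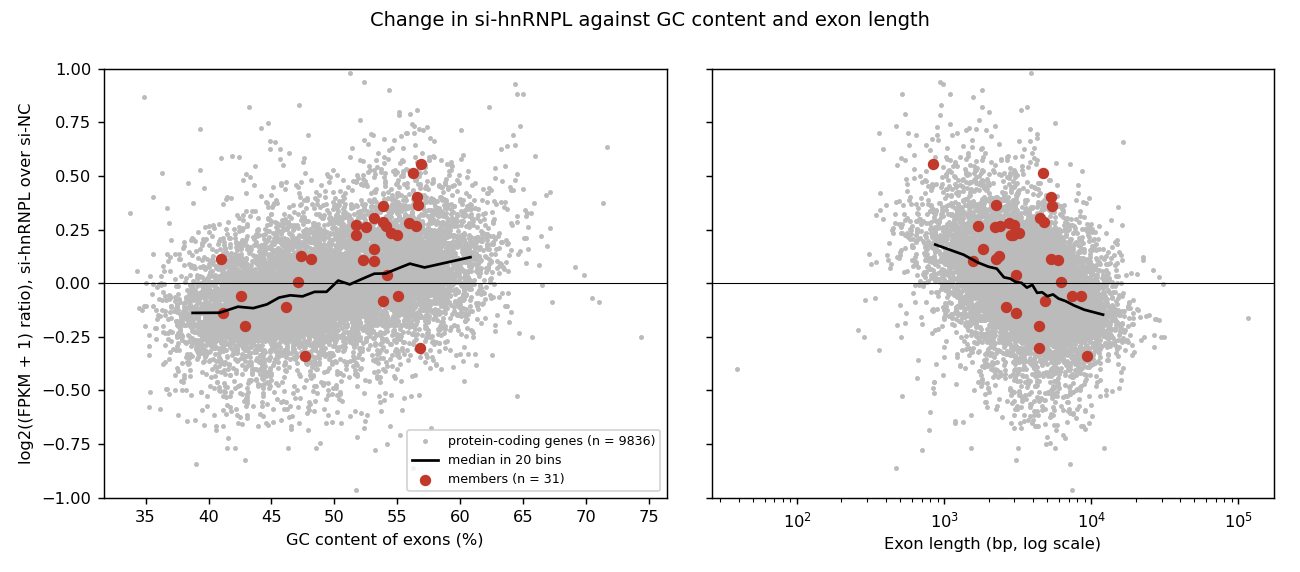
Change in si-hnRNPL over si-NC, as log2((FPKM + 1) ratio), against the GC content of exons (left, percent) and exon length (right, bp on a log axis). Gray points are 9836 protein-coding genes with 1 FPKM or more in both libraries, of which 12 lie beyond the axis, and the black line is their median in 20 bins. Red points are 31 genes of the pathway, 23 of which lie above the median of all genes.

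Within families, the muscle-type share was higher in si-hnRNPL for 8 of 9, and apart by its interval for 4. For phosphofructokinase, Pfkm made up 37.0% (35.7 to 38.3) with si-NC and 43.1% (41.5 to 44.7) with si-hnRNPL. Pfkm itself had overlapping intervals there, at 36.9 FPKM (35.1 to 38.7) and 37.9 (35.8 to 39.9), whereas Pfkl had 37.6 FPKM and 30.3, and Pfkp 25.2 and 19.7. For glycogen phosphorylase, Pygm made up 38.0% (36.5 to 39.6) and 43.6% (41.6 to 45.5). For monocarboxylate carriers, Slc16a3 made up 12.3% (11.2 to 13.3) and 18.03% (16.5 to 19.6), the exons of Slc16a3 overlapping Csnk1d on the other strand over 15.6% of their length. For phosphoglycerate mutase, Pgam2 made up 3.46% (3.01 to 3.92) and 4.65% (4.04 to 5.26). Enolase was the family with a lower share, 37.0% and 35.5%, with overlapping intervals. Of the 59 other genes around the pathway, 0 were higher and 0 lower at the threshold in si-hnRNPL.

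MT of the total RNA-seq and si-NC of the PolyA+ RNA-seq differ in library type, time and transfection, and their levels are given side by side without a comparison. Pfkm had 58.0 FPKM in MT and 36.9 in si-NC, Pygm 20.2 and 14.3, Pgam2 26.0 and 9.83, and Phkb 31.4 and 18.6. Eno1 had 195 and 495 FPKM, Ldha 183 and 388, Slc2a1 16.99 and 32.5, and Gapdh 439 and 823. The sum over the 35 genes was 4158 FPKM in MB and 2774 in MT, or 1.21% and 1.05% of the FPKM of protein-coding genes. In the PolyA+ libraries it was 4605 FPKM with si-NC and 5506 with si-hnRNPL, or 1.21% and 1.35%.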

How the data were processed

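Total RNA-seq (MB, MT) and PolyA+ RNA-seq (si-NC, si-hnRNPL) of C2C12 cells were used, with 1 library per condition. The authors kept trimmed reads of 36 bp or more, aligned them against mm9 (TopHat v2.0.13) and ran Cufflinks (v2.1.1), whose FPKM per gene were deposited with a 95% interval. FPKM is relative to the fragments of the whole library, so a shift in abundant RNAs moves all other values. Strand-specific libraries were stated for total RNA only, and the counting of strand was not given in the sources used here.

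Changes were log2((FPKM + 1) ratio), called at 0.58 or more in size. Intervals of changes and shares combine the intervals of the FPKM. Implied fragments are (2 x FPKM / half-width of its interval) squared. Exon length, GC content and overlaps came from GENCODE gene models on mm9, copies from minimap2 2.31-r1302 and promoters from RefSeq (GRCm38.p6). No promoter window was used for Slc2a4. To remove the trend with length and GC content, the median of each of 20 bins was subtracted over 3 rounds. All 35 genes are named. Genes of the other lists are named past the threshold with 1 FPKM or more in either library, and some others beside them. The members and lists were chosen with earlier results of these data known. Alternatives were other pseudocounts, thresholds, filters, scalings and share measures. Calculations ran in Python 3.11.15 (matplotlib 3.10.9, scipy 1.17.1, pandas 2.3.3, numpy 2.4.6), and were tested on simulated data.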

Additional observations from a re-analysis of the deposited data

How the results depend on the processing

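No paired analysis was possible because each condition has 1 library, and for the same reason no library could be left out. For MT over MB, scaling to equal sums of named entries gave 17 genes higher and 0 lower with a median of 0.57, and the changes of Hk2 (0.30), Gapdh (0.48), Pgk1 (0.054), Pkm (0.20), Ldha (0.020) and Pygb (0.30) turned positive. Equal sums over protein-coding genes, chosen after seeing the data, gave 6 lower. Keeping genes with 1 FPKM or more in both libraries gave 3 higher, since Pygm, Pgam2 and Aldoc drop out, and so did removing the trend with length and GC content, run on the same genes and chosen after seeing the data. A threshold of 1 gave 6 lower, and one of exactly 1.5-fold, chosen after seeing the data, 9. For si-hnRNPL over si-NC, a pseudocount of 0.1 gave 1 gene higher (Pgam2), and 0.01 gave 3 higher (Pgam2, Eno2 and Pygl) and 1 lower (Aldoc). Pygl is listed at 0 in si-NC and rests on 2 implied fragments in si-hnRNPL. Summing entries with the same symbol, and adding the listed copies of Eno1 and Gapdh (chosen after seeing the data), changed no call of a gene in either comparison. With implied fragments in place of FPKM, 5 families had a higher muscle-type share in MT and 7 in si-hnRNPL. Implied fragments follow the width of the interval, which includes assignment error, so these are not read counts and give no check of the shares. Genes below 1 FPKM rest on few fragments, and 1 library per condition limits every difference.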
